A study of Mus musculus with 2 samples.

Results

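Membrane semaphorins and plexins are surface proteins by which growing axons and dendrites read each other, and 10 of their genes, Sema5a, Sema5b, Sema6a, Sema6b, Sema6d, Sema7a, Plxna1, Plxna2, Plxna4 and Plxnc1, were followed here by symbol among the 33696 genes of 2 single-nucleus RNA sequencing libraries of mouse hippocampus. The Control library came from Cic flox/flox mice without Cre, and the other, whose label says knockout, from Emx1-Cre; Cic flox/flox littermates. Both were made at postnatal day 19, each from 1 hippocampus of each of 3 mice, 2 males and 1 female, whose frozen tissue was pooled before nuclei were extracted. Cic encodes Capicua, a transcriptional repressor, and the Control mice carry the floxed alleles as well. Emx1-Cre acts in the progenitors of the dorsal telencephalon, which give rise to the excitatory neurons and much of the macroglia of the hippocampus, whereas its inhibitory neurons and microglia arise elsewhere. No library with Emx1-Cre and an intact Cic was analysed here, so an effect of the driver cannot be told apart from an effect of the floxed gene. Each genotype was 1 library, so there is no replicate error, no difference was tested, and every interval below covers counting error only.

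Semaphorins signal through plexins, and the pairs are partly selective. The Sema6 proteins bind A-type plexins, and SEMA6A with PLXNA2 and PLXNA4 is known for setting where the mossy fibers, the axons of dentate granule cells, run along CA3 pyramidal cells. SEMA5A and SEMA5B are large transmembrane semaphorins with thrombospondin repeats, and SEMA5A has been tied to the number of excitatory synapses on granule cells. SEMA7A is anchored by a lipid and binds PLXNC1 and integrins.

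The Control library held 25907 barcodes and 314453640 UMIs (unique molecular identifiers, each standing for 1 captured transcript molecule), and the knockout-labelled library held 23207 barcodes and 252995761 UMIs. After the filters, 21865 and 20531 nuclei were used, with medians of 9790 and 8766 UMIs. The libraries shared 175 barcode sequences. Nuclei were sorted into marker-defined classes, whose names end in "-like" because they rest on fixed markers alone, and 18 classes with at least 100 nuclei in each library were compared; 8.79% and 9.4% of nuclei stayed unnamed. All fixed markers of each class were higher in it than in other nuclei in both libraries, except Coch in CA3-like nuclei of the knockout-labelled library, where 6 of 7 were higher. The same markers gave the clusters their names, so this does not test the names. Leading genes of the endothelial-like class also included mural and fibroblast genes. Of the main classes, dentate granule-like nuclei numbered 4772 and 3809, CA3-like 1252 and 1147, and CA1-like 1897 and 1730.

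Cic itself was not lower in the knockout-labelled library. Its dentate granule-like counts were 532 UMIs for the Control and 536 for the knockout-labelled library, or 9.16 and 12.8 CPM (UMIs of a gene per 1000000 UMIs of its class and library), which puts the log2 ratio at 0.48 (0.31 to 0.66). In CA1-like nuclei the log2 ratio was 0.87 (0.63 to 1.11) and in CA3-like nuclei 0.74 (0.48 to 1.01). In Lhx6 inhibitory-like nuclei it was −0.06 (−0.43 to 0.31). Gene totals of 3′ reads do not show whether the floxed exons were removed, so the genotype rests on the label, and "the knockout-labelled library" is used throughout.

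Promoters are shown for Sema5a and Plxnc1, a ligand and a receptor gene that were both higher in several excitatory classes of the knockout-labelled library. Both sequences come from RefSeq promoters of mouse GRCm38.p6, run 5′ to 3′ on the strand of the gene and end just before its transcribed part: Sema5a at chr15:32244663-32244809 (plus strand) and Plxnc1 at chr10:94944846-94944995 (minus strand). Capitals mark GGGCGG, the GC box, on either strand; 2 of the 4 in the Plxnc1 window lie in the stretch shown.
Sema5a: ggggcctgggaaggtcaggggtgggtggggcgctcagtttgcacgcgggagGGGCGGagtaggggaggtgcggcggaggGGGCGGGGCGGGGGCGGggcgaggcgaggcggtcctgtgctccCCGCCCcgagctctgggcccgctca
Plxnc1: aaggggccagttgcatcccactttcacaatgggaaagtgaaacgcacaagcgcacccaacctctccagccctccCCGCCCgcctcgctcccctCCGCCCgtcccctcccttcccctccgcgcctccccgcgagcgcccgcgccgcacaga
RefSeq windows of 300 bases, from 250 before the start to 50 after it, were found for 7 of the 10 genes, in 9 windows, so Sema6a, Plxna1 and Plxna4 are not among the counts that follow. GGGCGG was in 7 of these 9 windows and in 35.7% of all 32851 promoters, both strands counted. The octamers TGAATGAA, TGAATGGA, TCAATGAA and TCAATGGA, the letters Capicua is known to bind, were in 0 of the 9 windows and, any of the 4, in 3.84% of all promoters. CCGGAAGT, a site of ETS factors, was in 0 of the 9 and in 3.89% of all. A match or its lack describes these letters in these windows alone. GC content was 71.3% for Sema5a and 69.0% for Plxnc1, with a median of 52.7% over all promoters.

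Across the 18 classes, 133 of 180 pairs of a gene and a class had the minimum counts, which means 50 UMIs or more and 10 CPM or more in whichever library was higher. Of these, 8 pairs (6.02%) were at least 2-fold apart, against 1.57% of 134223 pairs over all genes, either direction counted. All 8 were higher in the knockout-labelled library and 0 lower. In the classes that held them, calls over all genes were mostly higher too, from 65.90% in dentate granule-like to 83.05% in Cajal-Retzius-like nuclei. The 8 pairs belonged to 2 genes, Sema6a in CA1-like, dentate granule-like, CA3-like, CA2-like and deep-layer excitatory-like nuclei and Sema5a in CA1-like, Cajal-Retzius-like and subicular excitatory-like nuclei. Plxnc1 was higher by less than 2-fold in every mature excitatory class. Pairs of 1 gene are not independent of each other, and the genes were chosen with earlier results of these data known.

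**Figure D1:**
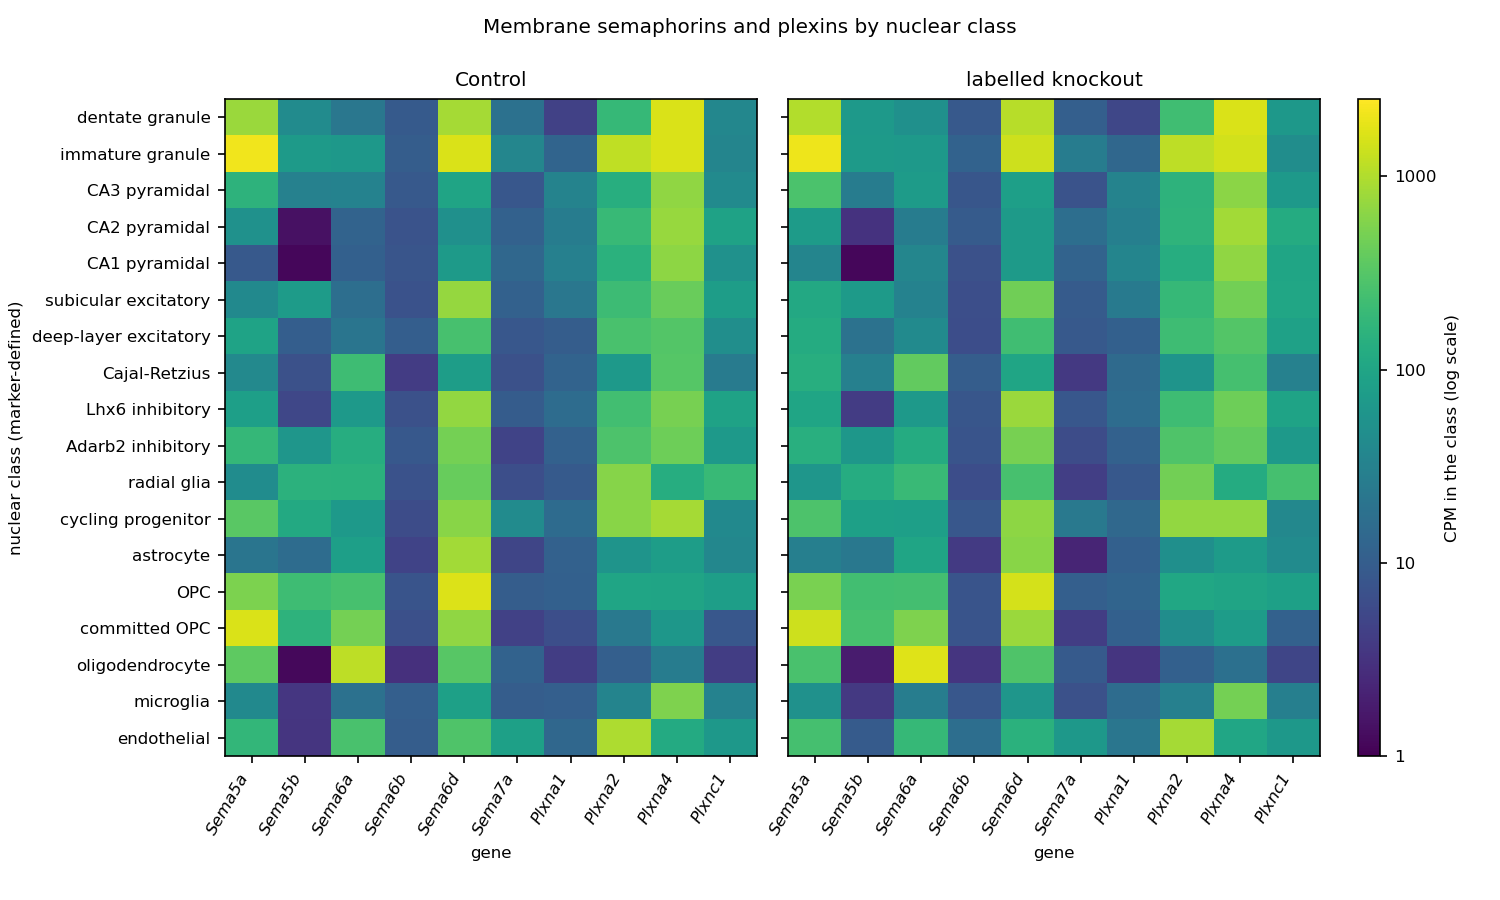
CPM (colour, log scale) of the 10 genes (columns) in 18 nuclear classes (rows) of the Control library (left) and the knockout-labelled library (right); OPC stands for oligodendrocyte precursor. Values are not scaled for gene length, so a colour is to be read down a column, as in the peak of Sema6a in oligodendrocyte-like nuclei, 1150 and 1710.

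Sema6a, the transmembrane ligand of the A plexins, was highest in the oligodendrocyte lineage of the Control library. Oligodendrocyte-like nuclei had 1150 CPM, committed oligodendrocyte precursor-like nuclei 482 and oligodendrocyte precursor-like nuclei 258.5, next to 266.5 in endothelial-like and 223.5 in Cajal-Retzius-like nuclei. Counting intervals of the last 3 overlapped. Most excitatory classes and microglia-like nuclei (18.6) were at the low end, with 32.2 in CA3-like, 22.3 in dentate granule-like and 10.99 in CA1-like nuclei.

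In these low classes the knockout-labelled library had more Sema6a. CA1-like nuclei went from 398 UMIs, or 10.99 CPM, in the Control to 1054 UMIs, or 36.3 CPM, a log2 ratio of 1.72 (1.56 to 1.89). It was 1 of 2 genes of the set higher by at least 2-fold among the 8 with the minimum counts there, where 3.28% of all genes were. Dentate granule-like nuclei had 22.3 CPM in the Control and 50.3 in the knockout-labelled library, a log2 ratio of 1.18 (1.08 to 1.28), in a class where 2.03% of genes were higher by that much. CA3-like nuclei, the target field of the mossy fibers, had 32.2 and 72.4, a log2 ratio of 1.17 (1.05 to 1.28), with 1.17% of all genes. In deep-layer excitatory-like nuclei the levels were 21.0 and 42.4 (log2 ratio 1.01, 0.69 to 1.34; 1.56% of genes higher by 2-fold), at the edge of the rule.

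CA2-like nuclei gave the thinnest of these counts, 42 UMIs in the Control and 69 in the knockout-labelled library, or 11.96 and 26.9 CPM (log2 ratio 1.16, 0.60 to 1.76; 2.23% of genes). Female nuclei there went from 6.26 to 36.8 CPM and male nuclei from 14.55 to 19.3, log2 ratios of 2.46 and 0.41. The interval of the male ratio, −0.48 to 1.30, spanned 0. For the dentate granule-like nuclei the same ratios were 1.17 in female and 1.19 in male nuclei, for CA1-like 1.84 and 1.56, and for CA3-like 1.31 and 0.91. Each pool held 1 female and 2 male mice, so this comparison looks within each pool and adds no replicate.

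Subicular excitatory-like nuclei showed how 1 cluster can carry such a value. Sema6a was 16.7 CPM in the Control and 32.1 in the knockout-labelled library, a log2 ratio of 0.94 (0.74 to 1.13), with 1.95 in female nuclei against 0.41 in male nuclei. A cluster of 5 Control nuclei and 66 nuclei of the knockout-labelled library held 248 of the 588 UMIs of the latter. Without that cluster, a choice made after the data were seen, the levels were 16.4 and 20.2 and the log2 ratio 0.30 (0.08 to 0.52).

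Clusters within the other classes were read the same way. The CA1-like class was made of 1 cluster that held 71.3% of its Control nuclei, another with 72.1% of the knockout-labelled nuclei, and one more with 18.0% and 27.2%. Within that last cluster, balanced between the libraries, Sema6a was 13.3 (10.8 to 16.2) in the Control and 32.95 (29.2 to 37.0) in the knockout-labelled library. In the cluster that held most of the latter, the 202 Control nuclei had 25.2 (20.1 to 31.1) and the 1247 knockout-labelled nuclei 38.1 (35.5 to 40.9). In the cluster with most Control nuclei, those 1353 nuclei had 8.40 (7.3 to 9.6). The 13 knockout-labelled nuclei there had 4.6 (0.12 to 25.7), on 1 UMI. An unnamed cluster of 806 and 684 nuclei whose markers were closest to CA1 had 6.71 (5.55 to 8.04) and 7.59 (6.15 to 9.26), intervals that overlap. It had 6 CA1 markers raised and a mean CA1 marker log2 ratio of 1.07, beside 4 and 0.74 in the balanced cluster. Its top genes held Dcn, a fixed fibroblast marker, and no CA1 marker, so the naming rule withheld a name. The CA1-like class therefore leaves this cluster out, and the ratio of the class with it added was not computed. Both CA3-like clusters had more Sema6a in the knockout-labelled library, 23.3 against 55.25 in the larger and 68.1 against 141 in the smaller. Most dentate granule-like nuclei of the Control fell into 1 cluster (90.2%) and most of the knockout-labelled library into another (84.5%). The small Control group of 436 nuclei in the latter cluster had 64.3 (57.2 to 72.05) CPM of Sema6a and the 3217 knockout-labelled nuclei beside them 48.2 (45.9 to 50.6), the opposite direction to the class. In the main Control cluster the 4306 Control nuclei had 18.3 (17.15 to 19.5) and the 70 knockout-labelled nuclei 37.9 (25.0 to 55.1). In the smallest cluster, of 30 and 522 nuclei, the levels were 61.1 (40.3 to 88.9) and 61.9 (56.2 to 68.0), intervals that overlap. When listed genes and genes past the size rule were kept out of the clustering, Sema6a kept a log2 ratio of at least 1 in dentate granule-like, CA1-like, CA2-like and CA3-like nuclei. With that clustering it was 0.97 in deep-layer excitatory-like nuclei, under 2-fold, and 1.06 in subicular excitatory-like nuclei, past it. All of these are ratios of a whole class, so they do not address the mix of clusters within it. Levels within the new clusters were not computed.

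Oligodendrocyte-like nuclei, where Sema6a is most abundant, had 1150 CPM in the Control and 1710 in the knockout-labelled library, a log2 ratio of 0.57 (0.54 to 0.61). Here too the mix of clusters differed. A cluster with low Sema6a, 462 in the Control and 432 in the knockout-labelled library, held 73.4% of the Control nuclei, and a cluster with high Sema6a, 2408 and 1942, held 77.9% of the knockout-labelled nuclei. Within neither cluster was the knockout-labelled library higher. Oligodendrocyte precursor-like (log2 ratio −0.11), Lhx6 inhibitory-like (0.06) and Adarb2 inhibitory-like nuclei (−0.08) differed little, and in Cajal-Retzius-like nuclei Sema6a was 223.5 and 385 CPM (0.78, 0.55 to 1.02). Intervals of its ratio lay above 0 in 12 of 18 classes, among them 5 of 6 glial ones. The log2 ratio was 0.59 in microglia-like (−0.41 in male nuclei alone), 0.43 in radial glia-like and 0.27 in astrocyte-like nuclei.

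Sema5a was highest in granule cells before maturity and in the middle of the oligodendrocyte lineage. In the Control it reached 2103 CPM in immature dentate granule-like and 1610 in committed oligodendrocyte precursor-like nuclei, followed by 776 in dentate granule-like and 529 in oligodendrocyte precursor-like nuclei, with no overlap of the intervals of neighbours in this order. CA3-like nuclei had 160, and CA1-like nuclei had 8.87, the lowest level of all classes.

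The knockout-labelled library had more Sema5a in pyramidal-type classes. CA1-like nuclei had 321 Control UMIs and 1029 in the knockout-labelled library, or 8.87 and 35.5 CPM, a log2 ratio of 2.00 (1.82 to 2.19). In subicular excitatory-like nuclei it was 40.9 and 113 (1.46, 1.35 to 1.58), where 1.80% of genes were higher by 2-fold, and in CA3-like nuclei 160 and 275 (0.79, 0.73 to 0.84). Cajal-Retzius-like nuclei, an early-born class that secretes reelin, had 40 and 147 UMIs, or 39.9 and 136 CPM (1.76, 1.26 to 2.31; 1.20% of genes). CA2-like and deep-layer excitatory-like nuclei showed smaller ratios, 0.48 (0.18 to 0.78) and 0.40 (0.24 to 0.56). Over all 18 classes the interval of the Sema5a ratio lay above 0 in 10 and below 0 in 5. Elsewhere the log2 ratio was 0.46 in astrocyte-like, 0.36 in microglia-like (−0.25 with called doublets kept) and 0.25 in Lhx6 inhibitory-like nuclei.

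In dentate granule-like nuclei, where Sema5a is abundant, the level was 776 in the Control and 1022 in the knockout-labelled library, a log2 ratio of 0.40 (0.38 to 0.42). The clusters differed, with 1139 (1108 to 1170) in the Control and 1102 (1091 to 1113) in the knockout-labelled library in the cluster with most nuclei of the latter, 747 and 769 (706 to 836) in the main Control cluster, and 493 (430 to 563) and 657 (638 to 676) in the smallest cluster, of 30 and 522 nuclei. It was lower in the knockout-labelled library in oligodendrocyte-like nuclei, 363 and 267 (−0.44), and in Adarb2 inhibitory-like nuclei, 186 and 141 (−0.40), both by less than 2-fold as a class. The oligodendrocyte-like cluster with high Sema6a had 768 (740 to 798) CPM of Sema5a in the Control and 294 (282 to 307) in the knockout-labelled library, more than 2-fold apart, and the cluster with low Sema6a 141 and 115, with intervals that overlap. Immature dentate granule-like nuclei had 2103 and 2050 (−0.04).

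Female and male nuclei both had more Sema5a in the knockout-labelled library in each class past 2-fold. The log2 ratios were 2.42 in female and 1.95 in male nuclei of the CA1-like class, 1.41 and 1.66 in subicular excitatory-like nuclei, and 2.08 and 1.11 in Cajal-Retzius-like nuclei. Within CA1-like nuclei the clusters differed. The balanced cluster had 15.7 (13.0 to 18.8) and 20.65 (17.7 to 23.9) CPM, intervals that overlap, whereas the Control nuclei of the main Control cluster had 7.33 and, in the cluster with most knockout-labelled nuclei, those nuclei had 41.0 (38.2 to 43.9) and the 202 Control nuclei 5.04 (2.93 to 8.065). The unnamed cluster closest to CA1 had 15.1 (13.3 to 17.0) in the Control and 111.5 (106 to 117) in the knockout-labelled library. In the larger subicular excitatory-like cluster the levels were 21.7 and 102, and in the next 87.5 and 129.5.

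Because Sema5a is abundant in granule cells and oligodendrocyte precursors, its counts were also read in a class that should lack it. Microglia-like nuclei had 0.094 UMIs of Sema5a per nucleus in the Control and 0.0967 in the knockout-labelled library, and 8.69% and 8.41% of them had a UMI, at median depths of 2158 and 1730 UMIs. CA1-like nuclei, at 18210 and 16207.5 UMIs, had 0.169 and 0.595 UMIs per nucleus, and 11.4% and 25.0% had a UMI. Thinned to 2000 UMIs, 1.53% and 6.24% of CA1-like nuclei had one, below the 7.13% and 7.32% of microglia-like nuclei, so no expression is read from the thinned share. In CPM too, CA1-like nuclei, at 8.87 and 35.5, were below the 41.4 and 53.3 of microglia-like nuclei in both libraries, and the Control levels of subicular excitatory-like (40.9) and Cajal-Retzius-like nuclei (39.9) had intervals that overlapped the microglia-like one. For the thinned share, 672 and 966 microglia-like nuclei were too shallow. The summed level of 9 granule markers in CA1-like nuclei was 337 CPM in the Control and 410 in the knockout-labelled library, with 5 of 9 higher and none at 0, and in subicular excitatory-like nuclei 342 and 522, with 7 of 9 higher. The part of this in the Sema5a ratios was not tested. With called doublets kept, the log2 ratio of Sema5a in CA1-like nuclei was 0.81 in place of 2.00. For Sema6a, microglia-like nuclei had 0.0422 and 0.0507 UMIs per nucleus, CA1-like nuclei 0.21 and 0.609, and CA3-like nuclei 0.764 and 1.52. In CPM, the Control levels of Sema6a in CA1-like (10.99) and CA2-like nuclei (11.96) were below the 18.6 of microglia-like nuclei, with overlapping intervals for CA2-like nuclei, and in the knockout-labelled library the levels were 36.3, 26.9 and 27.9. Control intervals of dentate granule-like (21.1 to 23.5), deep-layer excitatory-like (17.4 to 25.1) and subicular excitatory-like nuclei (15.0 to 18.6) also overlapped the microglia-like one (14.3 to 23.7). The summed level of 8 oligodendrocyte markers was 98.2 and 79.1 CPM in CA3-like and 112 and 117 in CA1-like nuclei.

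**Figure D2:**
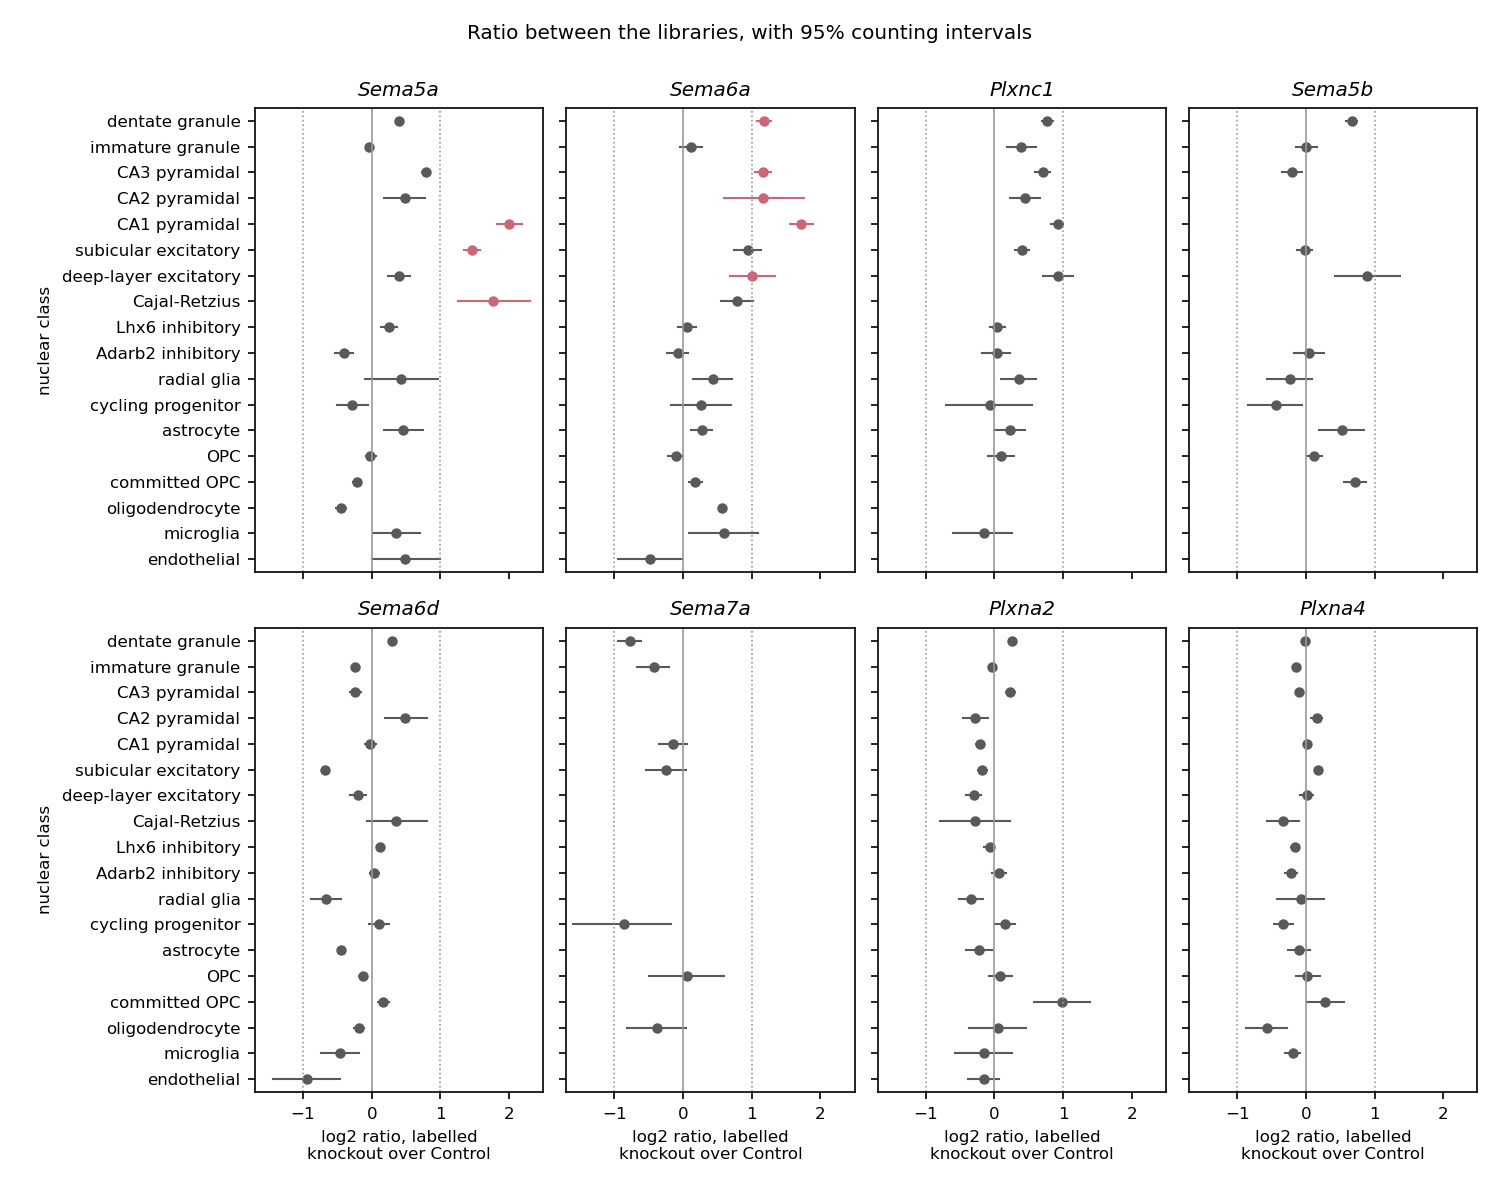
Log2 ratio, library labelled knockout over Control (points), with 95% counting intervals (lines) for 8 genes in the classes with the minimum counts; red marks ratios past 2-fold and dotted lines 2-fold either way. Sema6a, Sema5a and Plxnc1 lie above 0 in the mature excitatory classes at the top, while Plxna4 lies near 0, at −0.02 in dentate granule-like nuclei.

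Plxnc1, the receptor of SEMA7A, had no ratio past 2-fold but differed in the same direction in all mature excitatory classes. Its interval lay above 0 in 6 of 6 mature excitatory classes, with log2 ratios from 0.40 to 0.92. The share of all genes with such intervals was not computed, and the median ratio of all genes tested in these classes was 0.02 to 0.11. CA1-like nuclei had 1896 and 2871 UMIs, or 52.4 and 98.9 CPM (0.92, 0.83 to 1.00), deep-layer excitatory-like nuclei 47.2 and 89.55 (0.92, 0.71 to 1.14), dentate granule-like nuclei 37.6 and 64.1 (0.77, 0.69 to 0.85) and CA3-like nuclei 42.7 and 69.3 (0.70, 0.59 to 0.81). Microglia-like nuclei had 32.6 (26.9 to 39.1) in the Control and 29.0 in the knockout-labelled library. The Control interval of dentate granule-like nuclei, 36.05 to 39.2, overlapped theirs.

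Female and male nuclei gave like values for Plxnc1 in dentate granule-like (0.82 and 0.83), CA3-like (0.69 and 0.64) and CA1-like nuclei (0.93 and 0.81). Female nuclei alone gave 1.02 in the deep-layer excitatory-like class, past 2-fold. In the CA2-like class they gave 0.76, beside 0.44 over all its nuclei. In the dentate granule-like cluster with most knockout-labelled nuclei, Plxnc1 was 59.1 (52.3 to 66.5) in the Control and 57.3 (54.8 to 59.9) in the knockout-labelled library, and the intervals overlapped in the main Control cluster, 35.4 and 40.7 (27.3 to 58.5), and in the smallest one, 79.2 (55.2 to 110.1) and 100.3 (93.0 to 108). In the balanced CA1-like cluster it was 119 (111.5 to 127) and 151 (143 to 160), and in the unnamed cluster closest to CA1 90.9 and 150.2. Lhx6 inhibitory-like nuclei, with 90.2 and 92.8 (0.04, −0.07 to 0.16), and Adarb2 inhibitory-like nuclei, with 68.0 and 69.3 (0.03, −0.18 to 0.23), did not show it. Whether the excitatory and inhibitory ratios differ was not tested. Its highest level was in radial glia-like nuclei, 196 and 249 (0.35, 0.09 to 0.60).

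**Figure D3:**
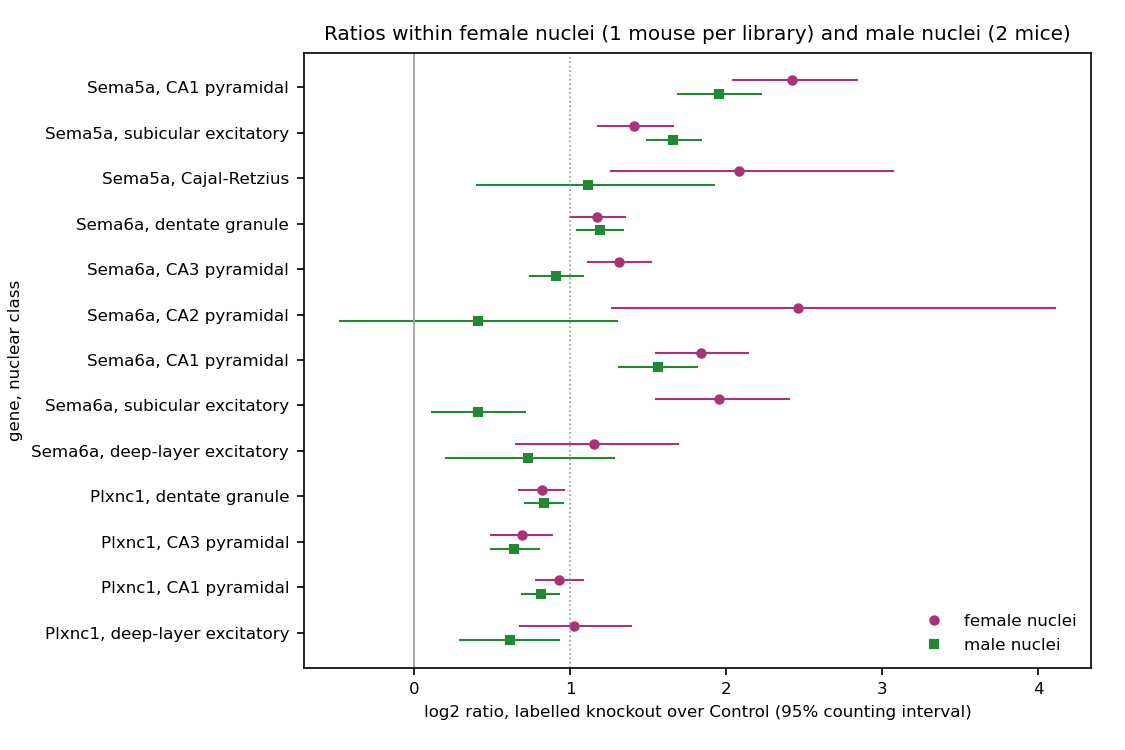
Log2 ratio, library labelled knockout over Control, in female nuclei (circles) and male nuclei (squares), with 95% counting intervals, for the 8 pairs past 2-fold and 5 others. Sema6a gives 1.17 and 1.19 in dentate granule-like nuclei but 2.46 and 0.41 in CA2-like and 1.95 and 0.41 in subicular excitatory-like nuclei.

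Sema7a, its ligand, went the other way in granule cells. Dentate granule-like nuclei had 1073 Control UMIs and 449 in the knockout-labelled library, or 18.5 and 10.7 CPM, a log2 ratio of −0.78 (−0.95 to −0.62), with −0.76 in female and −0.86 in male nuclei. In the cluster with most knockout-labelled nuclei it was 20.4 (16.5 to 25.0) and 12.05 (10.9 to 13.3). Immature dentate granule-like nuclei had 35.8 and 26.5 (−0.43, −0.67 to −0.20). Neither passed 2-fold. In CA1-like nuclei the interval of the ratio, −0.35 to 0.05, spanned 0. Sema7a had the minimum counts in 7 of 18 classes, and in cycling progenitor-like nuclei, on 56 and 25 UMIs, the log2 ratio was −0.86 (−1.61 to −0.17), with 0.12 (−1.11 to 1.35) in female and −1.08 (−2.64 to 0.17) in male nuclei.

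Sema5b was highest in oligodendrocyte precursors and progenitors, with 219 CPM in oligodendrocyte precursor-like, 158 in committed oligodendrocyte precursor-like and 152 in radial glia-like nuclei of the Control, and lowest in oligodendrocyte-like (1.20) and CA1-like nuclei (1.16). It was higher in the knockout-labelled library in dentate granule-like nuclei, 44.0 and 70.1 (log2 ratio 0.67, 0.59 to 0.75; 46.5 and 74.5 in the cluster with most knockout-labelled nuclei), and in committed oligodendrocyte precursor-like nuclei, 158 and 259 (0.71, 0.56 to 0.87). Its largest ratio with the minimum counts was in deep-layer excitatory-like nuclei, on 60 and 110 UMIs, 10.3 and 19.2 CPM (0.89, 0.43 to 1.37). In CA3-like nuclei it was 31.3 and 27.2 (−0.20, −0.35 to −0.06). Subicular excitatory-like nuclei as a class had 72.4 and 71.3, yet nearly all of it lay in 1 cluster, with 245 and 252, against 1.04 and 0.936 in the larger cluster.

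Sema6d, a ligand of PLXNA1, was abundant in oligodendrocyte precursor-like nuclei (1654 CPM in the Control) and immature dentate granule-like nuclei (1635), whose intervals overlapped, and then in dentate granule-like (883) and astrocyte-like nuclei (858.5), whose intervals overlapped too. Subicular excitatory-like nuclei had 737 in the Control and 461 in the knockout-labelled library (log2 ratio −0.68, −0.71 to −0.64), lower in both of the larger clusters, 787 against 456 and 621 against 468. It was also lower in radial glia-like nuclei, 408 and 258 (−0.66, −0.88 to −0.44), and astrocyte-like nuclei, 858.5 and 633 (−0.44, −0.49 to −0.39). Dentate granule-like nuclei had 883 and 1076 (0.29, 0.27 to 0.30), but the direction turned in the cluster with most knockout-labelled nuclei, with 2030 in the Control and 1223 in the knockout-labelled library, and in the smallest cluster, with 570 and 361. Before maturity the levels were 1635 and 1384 (−0.24, −0.27 to −0.21). In endothelial-like nuclei, with 86 and 63 UMIs, the log2 ratio was −0.94 (−1.44 to −0.46), but −1.98 in female and 0.57 in male nuclei.

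Sema6b was low in every class, between 3.00 and 10.6 CPM in the Control, and had the minimum counts in 2 of 18. Its top value was in microglia-like nuclei, 10.6 and 8.45. In deep-layer excitatory-like nuclei, on 61 and 36 UMIs, it was 10.5 and 6.28 (log2 ratio −0.73, −1.38 to −0.12). In immature dentate granule-like nuclei the interval, −0.18 to 0.63, spanned 0.

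Plxna4, an A-type receptor, was near 1 level in both libraries in the main excitatory classes. Dentate granule-like nuclei had 93692 and 66484 UMIs, or 1613 and 1588 CPM (log2 ratio −0.02, −0.04 to −0.01), CA1-like nuclei 669 and 680 (0.02) and CA3-like nuclei 684 and 638 (−0.10). Its lowest level was in oligodendrocyte-like nuclei, 26.8 and 18.1 (−0.57, −0.87 to −0.27). The deposited counts do not state a strand setting in the sources used here, and 3 annotated antisense genes, 1 of them with 4085 UMIs over the classes, overlap Plxna4. Antisense genes also overlap Sema5a (554 UMIs), Sema6d (407 and 101) and Plxna1 (843).

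Plxna2 was highest in immature dentate granule-like nuclei, 1175 and 1143 CPM (log2 ratio −0.04), and endothelial-like nuclei, 968 and 867 (−0.16). Excitatory ratios stayed small in either direction, from 0.26 in dentate granule-like to −0.30 in deep-layer excitatory-like nuclei. In the dentate granule-like cluster with most knockout-labelled nuclei, Plxna2 went the other way, 351 in the Control and 221 in the knockout-labelled library. In committed oligodendrocyte precursor-like nuclei, on 82 and 146 UMIs, it was 23.4 and 46.2 CPM (0.98, 0.58 to 1.39). Plxna1 was highest in CA3-like (32.8 and 33.1), CA1-like (30.35 and 35.0) and CA2-like nuclei (26.8 and 29.25), whose Control intervals overlapped, and none of its ratios passed 2-fold.

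Granule cells could be compared before and after maturation within each library, since immature and mature classes both held over 2000 nuclei. In the Control, Sema6a was 64.7 CPM in immature and 22.3 in mature nuclei, a log2 ratio of −1.54 (−1.68 to −1.40), and in the knockout-labelled library it went from 69.9 to 50.3 (−0.47, −0.60 to −0.34). Sema5b went from 71.2 to 44.0 in the Control (−0.69) and from 71.3 to 70.1 in the knockout-labelled library (−0.02). Sema5a (2103 and 776 CPM in the Control, 2050 and 1022 in the knockout-labelled library) and Sema6d (−0.89 and −0.36) had a smaller step in the knockout-labelled library too. Whether the steps differ between the libraries was not tested. The mature nuclei of the libraries lay mostly in different clusters. Control nuclei of the cluster with most knockout-labelled nuclei had 64.3 CPM of Sema6a, 1139 of Sema5a, 2030 of Sema6d and 46.5 of Sema5b, beside immature Control levels of 64.7, 2103, 1635 and 71.2.

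Of the receptors, Plxna2 had a step of −2.63 in the Control and −2.34 in the knockout-labelled library, and Plxna4 none in the Control (0.00, −0.02 to 0.02). Plxnc1 was higher in mature nuclei of the knockout-labelled library, 64.1 against 45.8 (0.48, 0.34 to 0.64), while in the Control the interval of its step, −0.05 to 0.27, spanned 0. Sema7a was lower in mature nuclei in both, by −0.96 and −1.31. Fixed markers of immature granule cells were also higher in mature nuclei of the knockout-labelled library, in sum 108 against 167.5 CPM in dentate granule-like nuclei with 6 of 6 higher, and 47.1 against 105 in CA1-like nuclei with 6 of 6 higher. The 9 markers of mature granule cells summed to 6119 and 4727 CPM in dentate granule-like nuclei, with 2 of 9 higher in the knockout-labelled library. Their part in the ratios of the semaphorins was not tested.

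**Figure D4:**
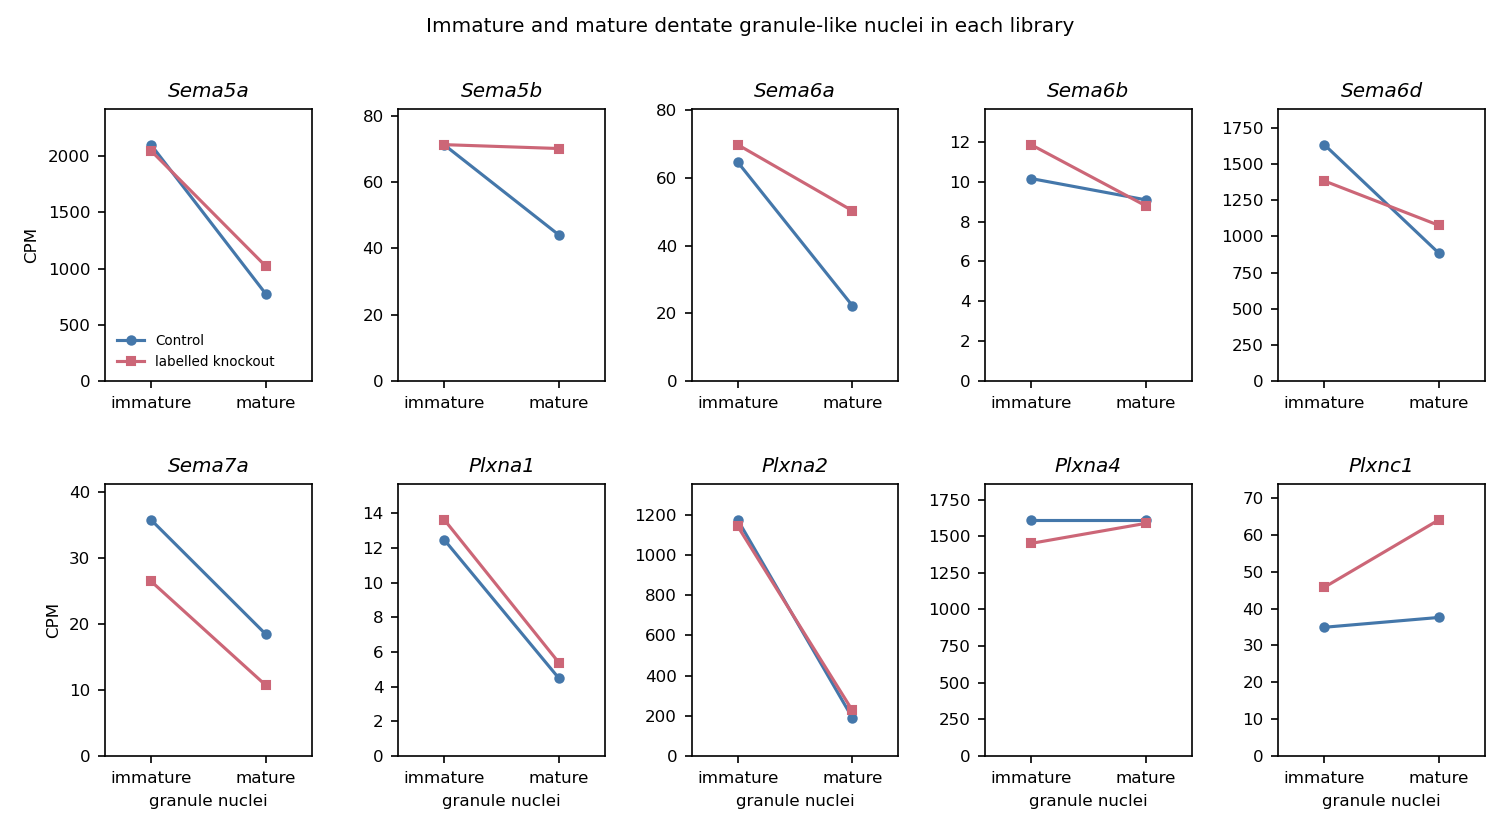
CPM of each gene in immature and mature dentate granule-like nuclei of the Control (circles) and the knockout-labelled library (squares); each vertical axis starts at 0 and has its own scale. Sema5b is level at 71.3 and 70.1 in the knockout-labelled library and lower in mature Control nuclei, 44.0.

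Of 12 other membrane semaphorins and plexins, the Sema4 genes, Sema6c, Plxna3 and the B- and D-type plexins, 0 of 4 with the minimum counts were past 2-fold in dentate granule-like, 0 of 4 in CA3-like and 0 of 3 in CA1-like nuclei, where 2.03%, 1.17% and 3.28% of all genes were higher by that much. Over all classes 1 of 72 pairs was (1.39%, near the 1.57% over all genes), Sema4d in CA2-like nuclei, named here after its values were seen, with 62 and 93 UMIs (log2 ratio 1.04, 0.56 to 1.53). Their median in dentate granule-like nuclei was 0.64 over the 4 with the minimum counts, against 0.02 over all genes tested, and for the 8 members it was 0.34.

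A list of 28 plexin signalling genes held mediators and also receptors, such as integrins. Its genes with the minimum counts and past 2-fold in dentate granule-like, CA3-like or CA1-like nuclei were all higher in the knockout-labelled library. So were 65.90%, 75.59% and 81.79% of all genes past 2-fold in these classes. Dpysl3, a collapsin response mediator that binds microtubules, had 24.1 and 100.0 CPM in dentate granule-like nuclei (log2 ratio 2.05, 1.96 to 2.14) and 26.4 and 85.4 in CA1-like nuclei (1.69, 1.59 to 1.80). Dpysl5, of the same family, had 23.3 and 57.4 in CA1-like nuclei (1.30) and 5.93 and 12.8 in CA3-like nuclei (1.10). Limk1, a kinase of the actin regulator cofilin, had 11.6 and 28.1 in CA3-like nuclei (1.27), and Farp1, a Rac exchange factor, 11.4 and 23.8 there (1.06). Of the members of this list with the minimum counts, 1 of 20 was higher by at least 2-fold in dentate granule-like, 3 of 21 in CA3-like and 2 of 20 in CA1-like nuclei, beside 2.03%, 1.17% and 3.28% of all genes. The medians of the list were −0.01, 0.04 and 0.14, against 0.02, 0.07 and 0.11 over all genes tested.

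The order of classes by level was much the same in both libraries. Over the 18 classes, Pearson correlations of log2 levels between them were 0.93 to 0.99 for 9 of the genes and 0.58 for Sema6b, a description in which the points share 2 libraries and differ in depth. By the same measure within the Control, among 11757 genes, Plxna4 was most like Lrp11 and Dbn1 (both 0.94), Sema6a like Gkap1 (0.91) and Creb5 (0.89), Plxnc1 like Atxn1 (0.87) and C230013L11Rik (0.83), Sema5a like Ptpro (0.86) and Hbs1l (0.77), and Plxna2 like Tmem67 (0.86) and Afdn (0.85). Sema7a was most like Gm28055 (0.88) and Tnxb (0.85), Plxna1 like Ociad2 (0.86) and Cpne7 (0.84), Sema5b like Ebf4 (0.77) and Gm32834 (0.75), and Sema6d like Dhrs13 (0.76) and Prkd1 (0.74). Partners were picked as the highest Control values. In the knockout-labelled library the same pairs gave from 0.58 (Sema5a with Hbs1l) to 0.96 (Plxna4 with Lrp11). Sema6b did not reach the level set for this search.

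Under 12 other processing choices, Sema6a in dentate granule-like nuclei lay between 1.04 and 1.19 and in CA1-like nuclei between 1.48 and 1.84, while Sema5a in CA1-like nuclei ran from 0.81 with called doublets kept to 2.42 in female nuclei alone. Sema6a in deep-layer excitatory-like nuclei passed 2-fold in 5 of the 12.

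**Figure D5:**
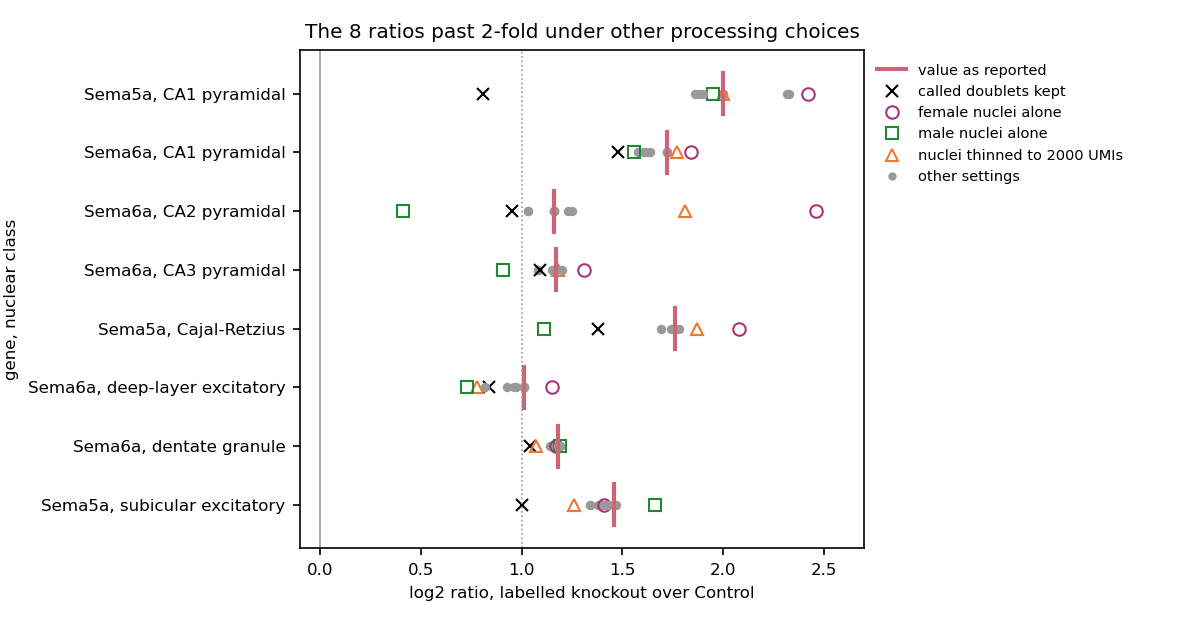
Log2 ratio, library labelled knockout over Control, of the 8 pairs past 2-fold as reported (red bars) and under other processing choices (symbols); the dotted line marks 2-fold. All values stay above 0, and the farthest from the reported one are Sema6a in CA2-like nuclei, 0.41 in male and 2.46 in female nuclei, and Sema5a in CA1-like nuclei with doublets kept, 0.81.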

How the data were processed

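The authors deposited 1 matrix of UMI counts per library, made with Cell Ranger 8.0.1, per the file headers and the submitters' processing notes; the strand setting of the counting is not given in the sources used here. Nuclei with at least 500 genes and at most 5% mitochondrial UMIs were kept, and doublets called by Scrublet in scanpy 1.11.5 (expected rate 0.1; 12.75% and 10.9% of nuclei) were removed. Both libraries were clustered together on 3000 variable genes, 30 principal components and 15 neighbours (Leiden resolution 1), without Y-linked and mitochondrial genes, Xist and Tsix. Clusters were named from fixed markers, of which at least 3 had to be raised, with a mean marker log2 ratio of at least 0.5. A name was also withheld where a different class had more of its markers among the 10 top genes of a cluster. Shallow clusters without a marker among those genes got no name either. A rule added after the clusters were seen left those with a median depth over 3 times that of their library unnamed. Counts were summed per class and library and given as CPM (UMIs per 1000000 UMIs of the class). The log2 ratio adds 0.5 UMI to each sum, with an exact conditional binomial interval (95%); levels have exact Poisson and shares exact binomial intervals. A nucleus was called female or male from Xist and Y-linked UMIs.

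Members and lists were chosen with earlier results of these data known. Other genes of the lists are named where they pass the size rule in dentate granule-like, CA3-like or CA1-like nuclei, and the 2 most alike genes are named for each member that reaches 20 CPM. The calculation was tested on simulated counts that held counting error alone, which does not address differences between mice or libraries. Of 33696 gene identifiers, 31961 were in GENCODE M21, used for overlaps. Alternatives changed the scaling, the minimum counts, doublets, filters, depth, sex, clustering and weighting of nuclei. CPM within a class cannot show a change of its total RNA.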

Additional observations from a re-analysis of the deposited data

Results flagged for a closer look

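Female and male nuclei differed in sign, with intervals on opposite sides of 0, for 3 pairs of a gene and a class. Sema6d in CA1-like nuclei had a log2 ratio of −0.47 in female nuclei, 90.6 CPM in the Control and 65.5 in the knockout-labelled library, and of 0.14 in male nuclei, 63.0 and 69.5. Sema6d in Lhx6 inhibitory-like nuclei had 0.52 in female nuclei, 602 and 863, and −0.10 in male nuclei, 735 and 687. Sema5b in Adarb2 inhibitory-like nuclei had 0.49 in female and −0.46 in male nuclei. These differences were not tested, and 1 female mouse stands behind each female value.

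Mossy cell nuclei, of which there were 71 in the Control and 108 in the knockout-labelled library, fell short of the number set for a comparison. Sema6a was 40.3 CPM there in the Control (75 UMIs) and 82.8 in the knockout-labelled library (202 UMIs), a log2 ratio of 1.03 (0.65 to 1.44).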

How the results depend on the processing

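Under the 12 alternatives, of which those on minimum counts cannot move a ratio, all 8 ratios past 2-fold kept their direction. Their number was 13 with no minimum on counts (12 higher, 1 lower) and 4 with called doublets kept, where Sema5a in CA1-like nuclei was 0.81, Sema6a in CA2-like 0.95 and in deep-layer excitatory-like nuclei 0.84, and Sema5a in subicular excitatory-like nuclei 1.00; the cause was not tested. Under the other 10 alternatives it was 6 to 10, with 1 lower call each with a minimum of 20 UMIs, with thinning, at Leiden resolution 2 and by the mean over nuclei. Thinning and male nuclei alone each shared 5 of the 8, and Sema6a in CA3-like nuclei was 0.91 in male nuclei. With thinning, Sema6a in CA2-like nuclei (1.81) and Sema5a in Cajal-Retzius-like nuclei (1.87) missed the minimum counts. Thinned Sema6a in deep-layer excitatory-like nuclei was 0.78, under 2-fold. Sema6a in deep-layer excitatory-like nuclei was under 2-fold with TMM factors (0.93) and median-of-ratios factors (0.96). These scalings moved the median of all genes by 0.12 and 0.14 in CA1-like and by 0.13 and 0.13 in CA2-like nuclei, and the share of higher calls from 81.79% to 71.53% in CA1-like (median of ratios), 69.00% to 53.44% in CA2-like and 75.59% to 65.08% in CA3-like nuclei (median of ratios). No paired analysis was possible because each genotype is 1 library, and for the same reason no replicate could be left out. Depth limits Sema6b, Sema7a and the classes of few nuclei most.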

Other observations

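In mossy cell nuclei, Plxnc1 was 36.0 CPM in the Control and 70.5 in the knockout-labelled library (log2 ratio 0.96) and Sema5a 235 and 364 (0.63, 0.46 to 0.80). An unnamed cluster of 376 and 432 nuclei had 1896 and 1334 CPM of Sema6d, and 67.9 and 114 of Plxnc1.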
